A study of Mus musculus with 4 samples.

Results

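Some RNA positions listed as peaks after pull-down of the protein Musashi-1 (Msi1) from wild-type mouse intestinal crypts had no peak nearby in mice with induced Msi1. They were chosen by position alone: a wild-type interval with no TRE-Msi1 peak on either strand within 2000 bp, measured edge to edge, is called distant here. There were 379 distant intervals among 4841 distinct intervals of wild-type replicate 1 and 2262 among 5551 of wild-type replicate 2. The comparison set, called overlapping, shared at least 1 bp on the same strand with a TRE-Msi1 peak and held 2822 and 1116 intervals. The other 1640 and 2173 had a TRE-Msi1 peak within 2000 bp without such an overlap and are called near.

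Msi1 is an RNA-binding protein that recognises short motifs with a UAG core and is known for controlling the translation of its target mRNAs. In the intestine it is known as a marker of the crypt base, where stem and dividing cells lie, while the absorptive and most secretory cells line the villus above. CLIP-seq crosslinks protein and RNA with ultraviolet light, pulls the protein down with an antibody and sequences the attached RNA fragments, so that pile-ups of reads mark candidate contact sites on a strand of RNA.

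The series had 4 Msi1 CLIP-seq libraries. TRE-Msi1 mice carry an Msi1 transgene switched on by doxycycline, and 2 of them were given the drug for 24 h before total intestinal epithelial cells were taken. The wild-type side was 2 control mice without doxycycline, from which crypts were taken. All libraries used the same antibody against Msi1 and the same irradiation, and what drives induction, and in which cells, was not stated in the labels used here. Genotype, drug and cells taken changed together and cannot be told apart, and in such bulk libraries fewer cells of a type and less RNA per cell cannot be told apart either. The labelled cell type was not checked against marker genes, because the peak lists carry positions of the build mm9 without gene names. Intervals are therefore named by position, and their sequences and genes are not given here.

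TRE-Msi1 replicate 1 listed 189594 distinct intervals and TRE-Msi1 replicate 2 listed 40361, so both were far longer than the wild-type lists. Read depth behind a list is unknown. TRE-Msi1 replicate 1 stands apart in form, with intervals 40 bp wide against 75 bp in TRE-Msi1 replicate 2 and 74 to 75 bp in the wild-type lists, and with 70.8% of its intervals on the plus strand against 50.9 to 51.4% in the other lists. Its scores, whose unit is not stated, ran from 1.5 to 19.9 (median 1.8), against 4 to 513 (median 6) in TRE-Msi1 replicate 2. The part of TRE-Msi1 replicate 1 in the results below was measured by leaving it out. A paired exact permutation test over 2 wild-type libraries cannot go below p = 0.5, so differences are given as values with 95% intervals that treat intervals as independent and cover counting error only. With no background library among the samples, a peak here is only a listed position, and binding was not shown.

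The wild-type libraries differed widely in how many of their positions were distant. Distant intervals made up 7.83% of wild-type replicate 1 (95% Wilson interval 7.11 to 8.62%) and 40.7% of wild-type replicate 2 (39.5 to 42.0%). These shares follow from the rule and from the length of the TRE-Msi1 lists. With each TRE-Msi1 list cut to its 4863 highest-scoring rows, as many as wild-type replicate 1 has, they were 56.4% and 80.3%. With the full TRE-Msi1 lists, 3330 of all 4841 intervals of wild-type replicate 1 (68.8%) had a peak of both within 2000 bp. Another 656 (13.6%) had one of TRE-Msi1 replicate 1 only and 476 (9.83%) one of TRE-Msi1 replicate 2 only. For wild-type replicate 2 the matching numbers, out of all 5551 intervals, were 1537 (27.7%), 865 (15.6%) and 887 (16.0%). When TRE-Msi1 replicate 1 was left out, the distant share came to 21.4% (wild-type replicate 1) and 56.3% (wild-type replicate 2). When TRE-Msi1 replicate 2 was left out instead, it was 17.7% and 56.7%. The gap between the wild-type libraries was present with either TRE-Msi1 list alone.

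**Figure D1:**
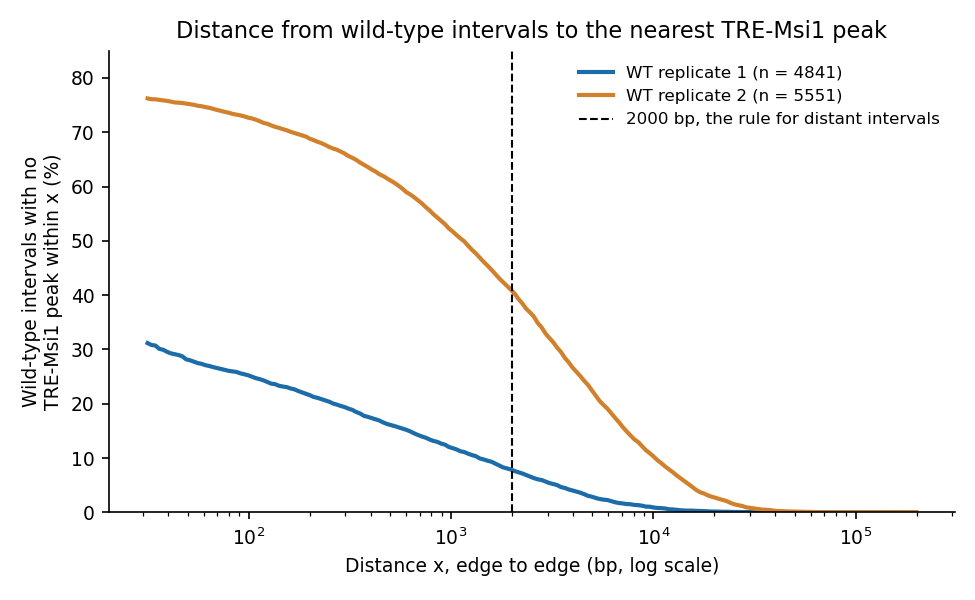
Share of wild-type intervals, in percent, with no TRE-Msi1 peak on either strand within a distance x (bp, log axis), for each wild-type list; the dashed line marks 2000 bp. At that line wild-type replicate 1 stands at 7.83% and wild-type replicate 2 at 40.7%, and the curve of wild-type replicate 2 is the higher one from 500 to 10000 bp.

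Most distant intervals still had a TRE-Msi1 peak a few kb away. The nearest one lay at a median of 4.12 kb from the distant intervals of wild-type replicate 1 (quartiles 2.83 and 6.30 kb) and at 5.46 kb from those of wild-type replicate 2 (3.30 and 10.1 kb). It lay between 2000 and 5000 bp away for 240 of the 379 (63.3%) and for 1018 of the 2262 (45.0%). Only 44 (11.6%) and 574 (25.4%) had none within 10 kb. The nearest peak belonged to TRE-Msi1 replicate 1, the longer list, for 54.6% of the distant intervals of wild-type replicate 1 and 74.1% of those of wild-type replicate 2. The nearest TRE-Msi1 replicate 2 peak was a median of 6.28 and 19.7 kb away. At the threshold itself, the distant intervals with the smallest gaps lay 2002, 2007 and 2014 bp from a TRE-Msi1 peak in wild-type replicate 1 and 2003, 2007 and 2009 bp in wild-type replicate 2. The intervals that just missed it lay at 1994, 1992 and 1989 bp and at 1999, 1999 and 1998 bp.

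Distant intervals had low scores. Wild-type replicate 2 is the wild-type list with usable scores: its score column holds the authors' score, a whole number of at least 3 whose unit is not stated, while the same column is 0 throughout wild-type replicate 1. The median score was 4 in distant intervals (quartiles 3 and 7.75) and 8 in overlapping intervals (5 and 14), and the 95% intervals of the medians, 4 to 5 and 8 to 9, did not meet. The lowest score, 3, was given to 785 distant intervals (34.7%) and to 133 overlapping ones (11.9%). Scores of 20 or more were found in 9 distant intervals (0.398%) and in 194 overlapping ones (17.4%). Near intervals lay between, with a median of 6 and 35 scores of 20 or more.

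Read the other way, the share of distant intervals fell with score in wild-type replicate 2. It was 58.5% at a score of 3 (55.8 to 61.1%), 43.3% at 4 to 6, 36.9% at 7 to 9, 28.7% at 10 to 14 and 8.84% at 15 or more (6.42 to 12.0%, 35 of 396 intervals). For wild-type replicate 1 only the order of rows could be used. Rows follow the score closely in wild-type replicate 2 (Spearman's rho across intervals -0.963, n = 5551), and whether they do so in wild-type replicate 1 cannot be read from its list. Each list was divided into 10 blocks of rows in file order. The first block of wild-type replicate 1 held 2 distant intervals among 485 (0.412%) and its last block 100 among 484 (20.7%). The first and last blocks of wild-type replicate 2 held 91 of 556 (16.4%) and 319 of 555 (57.5%). Both lists thus had fewer distant intervals among their first rows, but even the first block of wild-type replicate 2 had a larger distant share than the first 7 blocks of wild-type replicate 1 together (2.86%).

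**Figure D2:**
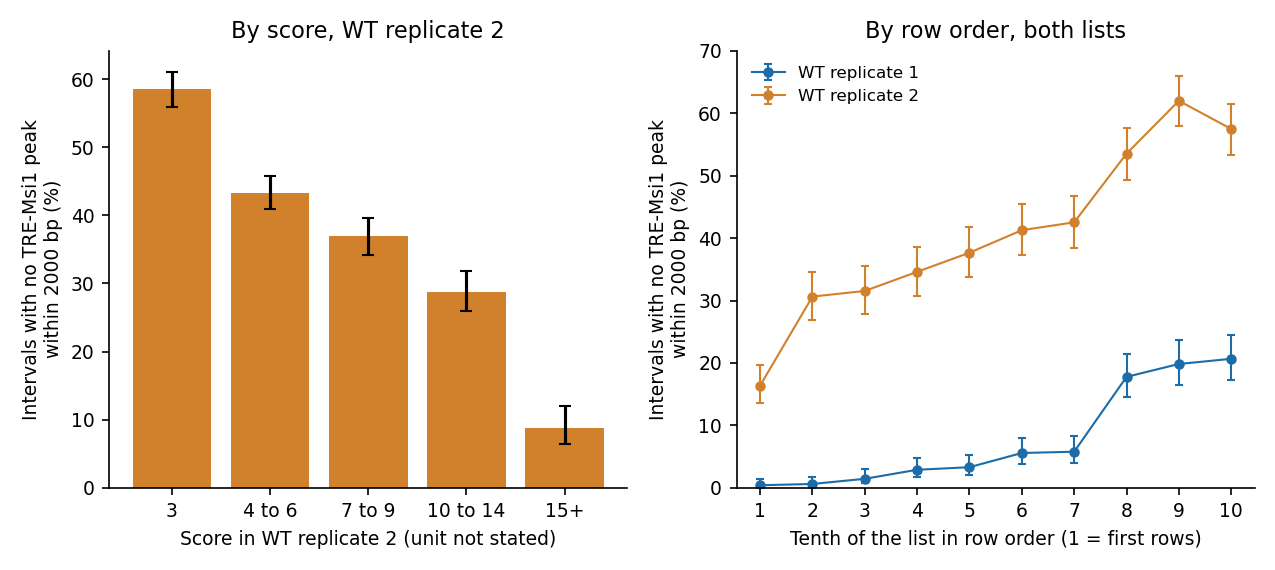
Share of wild-type intervals, in percent, with no TRE-Msi1 peak within 2000 bp. Left, by the authors' score in wild-type replicate 2 (bars), from 58.5% at a score of 3 to 8.84% at 15 or more. Right, by the 10 blocks of each list in row order (points), where wild-type replicate 2 lies above wild-type replicate 1 in all 10. Error bars are 95% Wilson intervals.

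Few distant intervals were listed at the same position by the other wild-type library. Their share is limited by the rule, since an interval that overlaps a distant one is itself seldom within 2000 bp of an induced peak, so that partners come almost only from the 2262 or 379 distant intervals of the other list. In wild-type replicate 1, 33 of 379 distant intervals (8.71%, 6.27 to 12.0%) overlapped a peak of wild-type replicate 2 on the same strand, against 397 of 2822 overlapping intervals (14.1%, 12.8 to 15.4%). Near intervals of that list stood lowest, at 82 of 1640 (5%, 4.05 to 6.16%), and all its intervals at 10.6%. In wild-type replicate 2, 34 of 2262 distant intervals (1.5%, 1.08 to 2.09%) overlapped a peak of wild-type replicate 1, against 394 of 1116 overlapping intervals (35.3%, 32.6 to 38.2%). Near intervals stood at 4.00% (3.26 to 4.91%) and all intervals of that list at 9.28%. With 379 distant intervals in wild-type replicate 1 against 2822 overlapping ones, part of this gap is built into the rule. The difference, distant minus overlapping, was -5.36 percentage points in wild-type replicate 1 (-8.14 to -1.87) and -33.8 in wild-type replicate 2 (-36.7 to -31.0). With a reciprocal overlap of 50% the interval of wild-type replicate 1 included 0 (-2.79 points, -5.39 to 0.56).

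The same gap was read within classes of score in wild-type replicate 2. At a score of 3, 7 of 785 distant intervals (0.892%) and 15 of 133 overlapping ones (11.3%) were found in wild-type replicate 1. At 10 to 14 the counts were 5 of 259 (1.93%) and 66 of 203 (32.5%). At 15 or more they were 8 of 35 (22.9%, 12.1 to 39.0%) and 204 of 270 (75.6%, 70.1 to 80.3%), a difference of -52.7 points (-64.5 to -35.6). That top class is not matched for score, since 9 of its 35 distant intervals and 194 of its 270 overlapping ones scored 20 or more. The 95% interval of the difference lay below 0 in each of the 5 score classes. The limit set by the rule holds within each class too, since all 34 distant intervals that overlapped wild-type replicate 1 met distant ones. A difference below 0 is therefore partly built in, and how large that part is was not tested.

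Positions listed in both wild-type libraries are the same positions read from either list, so their distant shares are alike by construction. Of 512 intervals of wild-type replicate 1 that overlapped wild-type replicate 2, 33 were distant (6.45%, 4.63 to 8.91%), and of 515 intervals read from wild-type replicate 2, 34 were (6.60%, 4.76 to 9.08%). Among the intervals that the other wild-type list lacked, 346 of 4329 were distant in wild-type replicate 1 (7.99%) and 2228 of 5036 in wild-type replicate 2 (44.2%, 42.9 to 45.6%). The wild-type lists differed in form, with median widths of 74 bp (replicate 1) and 75 bp (replicate 2). Scores were 0 throughout replicate 1 and 3 to 595 in replicate 2. Read depth and peak calling settings could not be read from the lists or labels, and their part in the difference between the lists was not tested.

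**Figure D3:**
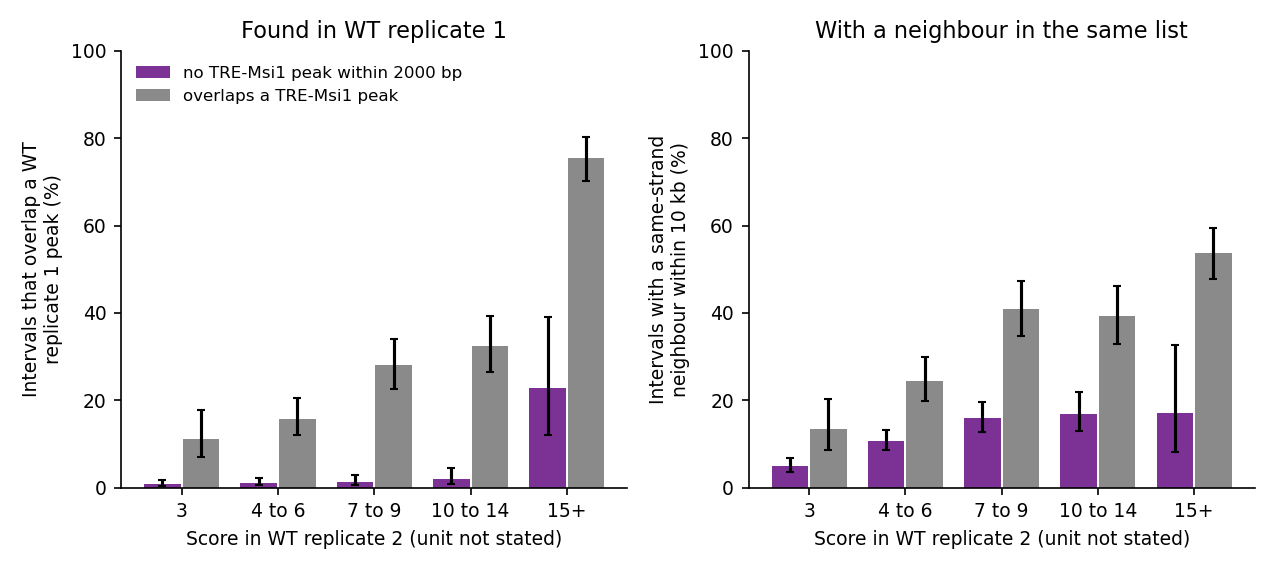
Intervals of wild-type replicate 2 by the authors' score, for those with no TRE-Msi1 peak within 2000 bp (purple, left in each pair) and those that overlap a TRE-Msi1 peak (grey). The left panel gives the percent that overlap a wild-type replicate 1 peak and the right panel the percent with a same-strand neighbour within 10 kb in their own list; error bars are 95% Wilson intervals. In both panels the purple bar is the lower one in each of the 5 score classes, as at 15 or more, where the pairs are 22.9 and 75.6% (left) and 17.1 and 53.7% (right). The rule itself lowers the purple bars in both panels.

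The 33 intervals of wild-type replicate 1 and their 34 partners in wild-type replicate 2 are the positions seen in both crypt libraries and not within 2000 bp of any peak after induction, since each partner was itself distant. They were spread over 18 chromosomes, with 15 on the plus strand and 18 on the minus strand. The paired intervals shared a median of 72 bp, and 23 of the 33 pairs shared at least 60 bp. Scores in wild-type replicate 2, taking the highest partner, ranged from 3 to 83 with a median of 9, and 13 of the 33 reached 10. In 5 of them the nearest TRE-Msi1 peak was more than 10 kb away, with a largest gap of 26.7 kb.

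The position with the highest score among them lay on the minus strand of chr10:11211877-11211951. It had a score of 83 in wild-type replicate 2, at percentile 99.3 of that list, and was row 139 of 4841 in wild-type replicate 1, counting distinct intervals in file order (chr10:11211857-11211930, with 54 bp shared). The nearest peak of TRE-Msi1 replicate 1 was 19.1 kb away and that of TRE-Msi1 replicate 2 was 180 kb away (207 kb on the same strand). Both crypt libraries thus listed it among their early rows, and neither induced library listed anything within 19 kb.

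A pair of positions on chromosome 4 were farther still from any induced peak. The interval at chr4:49216999-49217073 (minus strand) scored 36 in wild-type replicate 2 and was row 2503 in wild-type replicate 1, with TRE-Msi1 peaks 26.7 kb (replicate 1) and 55.5 kb (replicate 2) away. There the TRE-Msi1 replicate 1 peak was on the opposite strand, and on the same strand the nearest of that list was 174 kb away. The interval at chr4:128485536-128485610 (plus strand) scored 26 and was row 3581, with TRE-Msi1 peaks 24.6 and 55.8 kb away. They are the 2 of the 33 with more than 20 kb to the nearest peak of each TRE-Msi1 list. Both stood in later rows of wild-type replicate 1 than the chromosome 10 interval.

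Other high-scoring positions seen in both crypt libraries had an induced peak only a little beyond the threshold. The interval at chr7:52378336-52378410 (minus strand) scored 32 and was row 465 in wild-type replicate 1, with TRE-Msi1 peaks 2.61 and 3.25 kb away on the same strand. The interval at chr14:80414071-80414145 (plus strand) scored 27 and was row 2031, with peaks 7.73 kb (replicate 1) and 2.35 kb (replicate 2) away. At chr16:64851255-64851329 (minus strand) the score was 23, the row 1012 and the distances 4.30 and 5.03 kb. There the nearest TRE-Msi1 peaks were on the opposite strand, and on the same strand they were 26.4 and 61.4 kb away.

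By score in wild-type replicate 2, the 10 positions counted first among those in both lists are completed by 4 with lower scores. They were chr2:62202938-62203012 (minus strand, score 17), chr9:4260465-4260539 (plus, 17), chr6:94356687-94356761 (minus, 14) and chr6:7512865-7512939 (plus, 13). Their rows in wild-type replicate 1 were 3557, 4809, 4045 and 3794, all in the later part of that list. The nearest TRE-Msi1 peak was 3.63, 16.2, 8.93 and 5.42 kb from their wild-type replicate 1 intervals. The chromosome 6 interval at 7512865 overlapped another distant interval of its own list, at 7512839 to 7512913 with a score of 5, the one such case in wild-type replicate 2.

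High-scoring distant intervals without a wild-type replicate 1 peak were found as well. Among the 10 with the highest scores in wild-type replicate 2, 6 overlapped wild-type replicate 1 and are described above, and 4 did not. The interval at chr14:109830218-109830292 (plus strand, score 31) had a TRE-Msi1 replicate 1 peak 2.77 kb away, while the nearest TRE-Msi1 replicate 2 peak was 456 kb away (990 kb on the same strand). At chr18:7030227-7030301 (plus, 31) the distances were 5.03 and 82.9 kb, at chr6:126354438-126354512 (minus, 21) 9.23 and 19.1 kb, and at chr13:40968383-40968457 (plus, 18) 3.20 and 6.84 kb. The nearest wild-type replicate 1 peaks on the same strand were 140 to 3884 kb away. These 10 were the only distant ones among 271 intervals of the list with a score of 18 or more, of which 216 were overlapping.

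**Figure D4:**
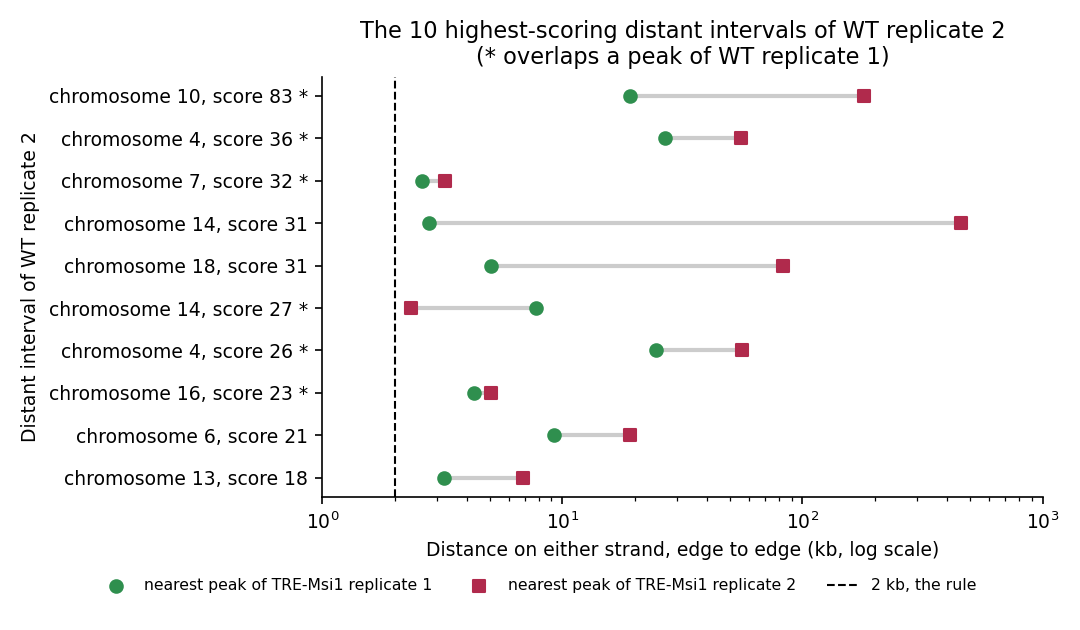
Distance in kb (log axis) from each of the 10 highest-scoring distant intervals of wild-type replicate 2 to the nearest peak of TRE-Msi1 replicate 1 (circles) and TRE-Msi1 replicate 2 (squares), on either strand; grey lines join the pair, the dashed line marks 2 kb, and asterisks mark the 6 that overlap a wild-type replicate 1 peak. TRE-Msi1 replicate 1 was nearer in 9 of the 10, and the gaps ranged from 2.35 kb to 456 kb.

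Most distant intervals had no close neighbour in their own list. A neighbour of the same list on the same strand within 10 kb was found for 79 of 379 distant intervals of wild-type replicate 1 (20.8%, 17.1 to 25.2%), against 1705 of 2822 overlapping ones (60.4%, 58.6 to 62.2%), with 52.4% over the whole list. In wild-type replicate 2 it was found for 240 of 2262 (10.6%, 9.41 to 11.9%), against 406 of 1116 (36.4%, 33.6 to 39.2%), with 22% over the whole list. The differences, distant minus overlapping, were -39.6 points (-43.8 to -34.8) and -25.8 points (-28.9 to -22.7). The rule itself lowers these shares, because a neighbour close to a distant interval can hardly lie at an induced peak. Near intervals stood between, at 46.0% and 26.5%. At a score of 3 in wild-type replicate 2 the shares were 4.97% for distant and 13.5% for overlapping intervals. At scores of 10 to 14 they were 17.0% and 39.4%. Opposite-strand neighbours within 10 kb were rare in both sets, at 1.85% against 2.02% in wild-type replicate 1 and 2.25% against 2.42% in wild-type replicate 2.

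Groups of distant intervals were small. Joined within 10 kb on a strand, the 379 of wild-type replicate 1 formed 368 loci, of which 11 held 2 intervals and none more. The 2262 of wild-type replicate 2 formed 2185 loci, of which 59 held 2 and 9 held 3. Loci with at least 2 intervals took in 5.80% and 6.41% of the distant intervals, against 49.2% and 22.3% of the overlapping ones, whose largest loci held 10 and 7. Each class was joined within itself, so these shares depend on class size. In wild-type replicate 1 there were 379 distant and 2822 overlapping intervals, and in wild-type replicate 2 there were 2262 and 1116. The rule lowers the distant shares too, and how large these parts are was not tested. Of the 79 distant intervals of wild-type replicate 1 with a neighbour within 10 kb, 22 had a distant one among their neighbours. In wild-type replicate 2 it was 145 of 240. Over the whole lists 7.83% and 40.7% of intervals were distant. The rule favours distant neighbours, because an interval close to a distant one can hardly lie at an induced peak.

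The first loci by position among those with 3 distant intervals in wild-type replicate 2 were examined. They lay at chr1:174419805-174425860 (plus strand, scores 11, 7 and 5), chr4:144651830-144664908 (minus, 11, 4 and 3), chr10:80250084-80254909 (plus, 10, 8 and 8), chr10:126978024-126987011 (minus, 14, 9 and 9) and chr11:6167137-6174700 (minus, 7, 5 and 3). In 4 of these 5 loci wild-type replicate 1 had no peak on the same strand, and in the chromosome 11 locus it had 1. Peaks of the TRE-Msi1 lists fell between the distant intervals in 2 of them, with 1 of TRE-Msi1 replicate 1 in the first chromosome 10 locus and 2 of each list in the chromosome 11 locus. The second chromosome 10 locus was the farthest from induced peaks, with the nearest 15.1 kb away.

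The 11 loci of wild-type replicate 1 with 2 distant intervals were taken in the same way. The first 5 by position were chr5:3832200-3841009 (plus strand), chr7:51503534-51505956 (plus), chr7:113222869-113223327 (minus), chr9:103212257-103220528 (plus) and chr10:42420710-42421073 (plus), with spans of 0.364 to 8.81 kb. Only the chromosome 7 locus at 51503534 held peaks of wild-type replicate 2, with 2 on the same strand. It was also the farthest of the 5 from an induced peak, at 13.3 kb, while the others lay 3.04 to 4.43 kb away. None of the 5 spans held a peak of either TRE-Msi1 list.

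Strand differed between the wild-type libraries. Of the distant intervals of wild-type replicate 1, 216 of 379 (57.0%, 52.0 to 61.9%) were on the plus strand, against 1356 of 2822 overlapping intervals (48.1%, 46.2 to 49.9%), a difference of 8.94 points (3.58 to 14.2). Near intervals of that list, at 918 of 1640 (56.0%, 53.6 to 58.4%), stood close to the distant ones, so the overlapping intervals were the class set apart. In wild-type replicate 2 the shares were 50.1% (48.1 to 52.2%) and 50.0% (47.1 to 52.9%), a difference of 0.13 points (-3.45 to 3.71). The plus share of distant intervals was the higher one on 14 of 20 chromosomes in wild-type replicate 1 and on 8 of 20 in wild-type replicate 2. The difference in wild-type replicate 1 turned to -1.25 points (-5.21 to 2.70) without TRE-Msi1 replicate 1. Among its overlapping intervals, those met only by TRE-Msi1 replicate 1 were 42.7% plus (40.0 to 45.3%, n = 1329) and those met only by TRE-Msi1 replicate 2 were 61.3% plus (57.8 to 64.8%, n = 742). The strand difference in wild-type replicate 1 was thus seen only where TRE-Msi1 replicate 1 was among the lists used, and its cause was not tested. Leaving that list out also changed which intervals counted as distant (21.4% of wild-type replicate 1).

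The distant share was also read by chromosome. Over chromosomes 1 to 19 and X it ranged from 5.29 to 11.8% in wild-type replicate 1 (median 7.60%) and from 34.6 to 48.9% in wild-type replicate 2 (median 40.5%). Chromosome 8 was highest in wild-type replicate 1 (20 of 169 intervals, 7.79 to 17.6%) and chromosome 18 lowest (11 of 208, 2.98 to 9.22%), and these intervals overlap. Chromosome 13 was highest in wild-type replicate 2 (109 of 223, 42.4 to 55.4%) and chromosome 19 lowest (71 of 205, 28.5 to 41.4%), whose intervals do not overlap. Chromosome 19 stood near the top in wild-type replicate 1, at 11.1%. Across the 20 chromosomes the order of the shares was weakly alike in the wild-type lists (Spearman's rho 0.280, given as a description).

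Per Mb, distant intervals were most frequent on chromosome 19 in wild-type replicate 1 (0.359 per Mb) and on chromosome 11 in wild-type replicate 2 (1.30 per Mb). On chromosome 11 wild-type replicate 1 had 0.222 distant intervals per Mb against 2.01 overlapping ones, and wild-type replicate 2 had 1.30 against 0.722. Over autosomes the coefficient of variation was 38.6% for distant and 26.8% for overlapping intervals in wild-type replicate 1, and 16.0% and 26.9% in wild-type replicate 2. Distant intervals of wild-type replicate 1 numbered only 9 (chromosome 15) to 27 (chromosome 11) per autosome. Counting error was not taken out of these values, so the classes cannot be ranked by evenness. On the X chromosome wild-type replicate 2 held 0.432 distant intervals per Mb, its lowest density. Its overlapping intervals were also sparsest there (0.252 per Mb), and the distant share on X was 42.6%. Chromosome 11 was the densest in overlapping intervals too, and its distant share in wild-type replicate 2 was 37.6%. Density per Mb and distant share thus rank these chromosomes differently. None of the 11 and 12 mitochondrial intervals of the wild-type lists were distant.

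**Figure D5:**
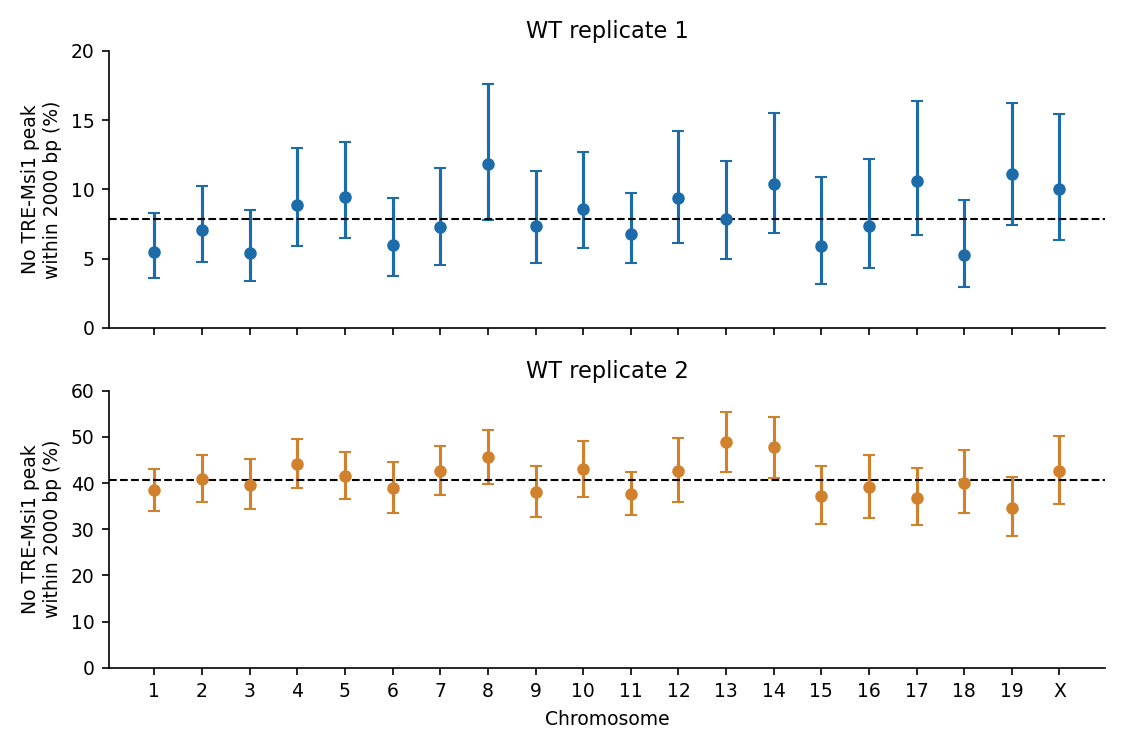
Share of wild-type intervals, in percent, with no TRE-Msi1 peak within 2000 bp on each chromosome, for wild-type replicate 1 (top) and wild-type replicate 2 (bottom); points are shares, bars are 95% Wilson intervals and dashed lines mark the whole list (7.83 and 40.7%). The axes differ in range. Most bars cross their line, and no chromosome of wild-type replicate 1 reaches the lowest value of wild-type replicate 2 (34.6%).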

How the data were processed

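One peak list per library was deposited. The tools Bowtie, an aligner, and HOMER, a peak and motif suite, and the genome build mm9 appear per the submitters' processing notes, while the sources used here do not give versions, settings or roles. The deposited score has no stated unit and was used to rank intervals within a list.

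Groups and replicate numbers came from the titles. Identical intervals were counted once, with the highest score. A gap was the number of bases between edges, and a gap of exactly 2000 bp counted as within. Loci joined intervals of a strand up to 10 kb apart. Shares carry Wilson intervals, their differences intervals built from these, and medians binomial order-statistic intervals. Named regions were the 10 highest-scoring distant intervals, up to 10 in both wild-type lists, the 5 largest loci per list (ties by position) and the 3 on each side of the threshold. The intervals, lists and rules were chosen with earlier results of these data known. The gap and overlap steps were tested on simulated lists and checked against bedtools 2.31.1. Calculations ran in Python 3.11.15 with scipy 1.17.1, pandas 2.3.3 and numpy 2.4.6, and plots in matplotlib 3.10.9. Coordinates are 1-based. Gene lists, gene names and motif counts that had been planned need an mm9 genome or annotation and were not analysed here.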

Additional observations from a re-analysis of the deposited data

How the results depend on the processing

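Of 65 values recomputed under another setting, 36 kept their sign and stayed within the 95% interval of the value reported. Another 27 kept their sign but moved outside it, and 2 changed sign. Of these 2, the strand difference of wild-type replicate 2 without TRE-Msi1 replicate 1 (-0.67 points) still lay within its interval. The distant share, at 7.83 and 40.7% (wild-type replicates 1 and 2), was 16.1 and 61.1% beyond 500 bp, 2.87 and 22.4% beyond 5000 bp and 0.909 and 10.3% beyond 10000 bp. It was 8.90 and 47.3% with same-strand peaks only, and 56.4 and 80.3% with TRE-Msi1 lists cut to 4863 rows. It was 22.7% among scores of at least 10 in wild-type replicate 2. Leaving out 1 TRE-Msi1 list gave 17.7 to 21.4% and 56.3 to 56.7%. Wild-type replicate 2 had the larger share in each case where both lists gave one. The median score of overlapping intervals was 8.5 to 10 with 1 TRE-Msi1 list left out, and that of distant ones 5. The strand difference was 17.9 points in wild-type replicate 1 beyond 10000 bp, -1.25 to 11.2 with 1 list left out, and -0.67 to 3.0 in wild-type replicate 2. The difference in neighbours was -55.9 and -32.2 points beyond 10000 bp, -28.7 in wild-type replicate 1 within 50 kb, and -39.6 to -25.2 and -28.5 to -22.7 with 1 list left out. The difference in sharing with the other wild-type list was -12.8 and -45.2 points within 500 bp, -25.7 in wild-type replicate 2 with reciprocal overlap of 50%, and -13.3 to -3.96 and -47.6 to -32.6 with 1 list left out. The cause of these shifts was not tested. No paired analysis was possible because no result comes from a test between groups. Unknown depth limits any statement on absence after induction.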

Other observations

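The distant share of wild-type replicate 1 did not climb evenly through its rows. It was 5.79% in the seventh of 10 blocks of rows (4.03 to 8.23%) and 17.8% in the eighth (14.6 to 21.4%), and it was 2.86% over the first 7 blocks and 19.4% over the last 3. The matching blocks of wild-type replicate 2 stood at 42.5 and 53.5%. The place of the step was picked after the values were seen, and its cause was not tested.

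A few distant intervals lay very far from induced peaks. In wild-type replicate 2, 9 lay more than 50 kb from any TRE-Msi1 peak. Their scores were 3 to 9, against a median of 4 over all its distant intervals. None of the 9 overlapped wild-type replicate 1, but among all 2262 distant intervals only 34 (1.5%) did. With so low a share, 9 intervals are too few to show a difference. On an assembled chromosome the farthest was at chr6:98577940-98578014 (plus strand, score 3), 79.5 kb away. In wild-type replicate 1 a single interval, chr16:23889647-23889720 (minus strand), lay more than 50 kb away, at 51.4 kb. Beyond 10 kb, 5 of 44 distant intervals of wild-type replicate 1 (11.4%) and 5 of 574 of wild-type replicate 2 (0.871%) were found in the other wild-type list.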
